A study of Mus musculus with 9 samples.

Results

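The genes described here are the 9 that name and equip a mature B cell: Cd79a, Cd79b, Ms4a1, Pax5, Ebf1, Cd22, Fcer2a, Blk and Bank1. They were chosen by symbol, as a list, from the 23499 genes of the deposited blood table, and all 9 had a row there and in the deposited joint table. Blood cells of 5 arthritic and 4 healthy mice, all female and of the 129SvE strain, were read out by Seq-Well, which catches single cells with barcoded beads in small wells. The arthritic mice carry the label Sick (rheumatoid arthritis) with disease stage 1.5 in mouse 1, 2 in mouse 3, 1.5 in mouse 4, 1.5 to 2 in mouse 5 and 2 to 2.5 in mouse 6; the healthy mice 1 to 4 carry stage 0. How arthritis was induced and how old the mice were are not stated in the labels. A second table holds joint cells from the mouse arthritis model, with raw reads the submitters describe as published earlier; its columns could not be matched to these 9 samples, so it is described by cell class alone.

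A B cell senses antigen with a membrane immunoglobulin that cannot signal by itself. CD79A and CD79B, a pair of small membrane proteins, couple it to intracellular kinases such as BLK, while CD22 damps and BANK1 relays the signal. EBF1 and PAX5 are the transcription factors that start and hold the B cell programme, and in the textbook account PAX5 is switched off when a B cell becomes an antibody-secreting plasma cell.

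The sequences shown are the promoter windows of Cd79a, whose level was kept in the columns rich in antibody transcripts described further on, and of Cd22, whose level was not. They run from 250 bases before to 50 after the RefSeq start site on GRCm38.p6, in the gene's own direction. The Cd79a window is chr7:24897247-24897546 on the plus strand and the Cd22 window chr7:30878979-30879278 on the minus strand. Capitals mark matches to TCCC, any 2 bases and GGGA, a core that EBF1 binds and that reads the same on both strands, and to CAGGTG or its reverse CACCTG, the E-box letters bound by E2A, a partner of EBF1.
Cd79a: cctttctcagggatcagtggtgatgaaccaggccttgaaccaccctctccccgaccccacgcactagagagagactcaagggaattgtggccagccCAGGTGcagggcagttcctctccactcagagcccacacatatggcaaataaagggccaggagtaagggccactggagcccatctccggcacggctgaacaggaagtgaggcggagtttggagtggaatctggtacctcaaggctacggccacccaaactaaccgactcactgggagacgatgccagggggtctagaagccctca
Cd22: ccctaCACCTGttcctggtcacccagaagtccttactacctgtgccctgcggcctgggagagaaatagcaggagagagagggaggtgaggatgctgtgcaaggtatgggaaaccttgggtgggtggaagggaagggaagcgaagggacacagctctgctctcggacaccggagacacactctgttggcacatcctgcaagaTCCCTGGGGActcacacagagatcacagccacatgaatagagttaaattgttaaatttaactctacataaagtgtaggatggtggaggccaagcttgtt
The EBF letters stand in the Cd22 window as TCCCTGGGGA, 49 bases before the start, and in 0.904% of all 32851 RefSeq windows of this length. E-box letters stand 154 bases before the start of Cd79a and 245 before that of Cd22, and in 20.2% of all windows. Windows were at hand for 6 of the 9 genes, namely Bank1, Cd22, Cd79a, Ebf1, Fcer2a and Pax5, and Cd22 was the gene among them with the EBF letters. The letters ATGCAAAT (octamer), CCGGAAGT (ETS) and GAGGAAGT (PU.1), searched on both strands, stood in 1.74%, 3.89% and 3.2% of all windows and in none of these. A match describes the letters only. The search took exact letters, so a window without a match, that of Cd79a included, is not shown to lack a binding site.

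The deposited table gives each barcode column a class name, a mouse and a whole-number signal for each gene, shown here per 1000000 of signal (SPM). The 9 mice gave 4310 columns, with 502 to 1027 columns and 8350920 to 13557201 signal in an arthritic mouse and 26 to 201 columns and 330950 to 2053973 signal in a healthy one. Columns were not independent: 1313 were identical in every gene to another column, and 235 of the 1301 B class columns were identical to a column of another mouse, among them 32 of the 136 healthy ones. Between tables, 1262 of the 8423 joint columns were identical to a blood column, although the tables shared 1 barcode. Hemoglobin took 0.630% to 50.0% of the signal in arthritic mice and 1.68% to 55.0% in healthy mice. The samples are labelled PBMC, yet 1905 columns carry the class name granulocyte. The classes were taken to be called from expression, which no label states, so values by class are descriptions with no test.

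The B class, deposited under the name of GL7-positive B cells (GL7 marks germinal centre B cells), held the highest level of 8 of the 9 genes among the 6 classes with enough columns. Over its 1301 columns it had Ms4a1 at 886 SPM, Cd79b at 356, Cd79a at 216, Bank1 at 212, Ebf1 at 207, Cd22 at 185 and Pax5 at 140.0. Blk stood at 38.9 SPM and Fcer2a at 41.7. Of 12 B cell markers, 11 were highest in this class, while all 12 T cell markers were highest in the class deposited as CD4 T cells. The markers thus went with the name for B cells in general, and 7 of 9 plasma cell markers were also highest in the B class.

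Outside the B class the levels ran in a like order for most genes, with the CD4 T and the myeloid dendritic class next and granulocytes and myeloid progenitors last. Ms4a1, which encodes CD20, the target of rituximab in people (chromosome 19, 11249675 to 11266241, minus strand), stood at 886 SPM in the B class, 380 in the dendritic, 339 in the CD4 T, 167 in the foxP3, 74.4 in the granulocyte and 47.9 in the progenitor class. By mouse it ran from 527 to 1083 SPM (median 728) over 8 mice in the B class, from 233 to 394 over 6 mice in the CD4 T class and from 27.7 to 150.0 over 9 mice in granulocytes. The B class was thus above every other class for Ms4a1 in every mouse compared, and the CD4 T and dendritic classes overlapped each other.

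The receptor chains Cd79a (chromosome 7, 24897381 to 24902197, plus strand) and Cd79b (chromosome 11, 106311341 to 106314762, minus strand) were likewise higher in the B class in 6 of 6 mice against CD4 T columns and in 8 of 8 against granulocytes. Cd79a ran from 144 to 249 SPM over mice in the B class and from 57.9 to 128 in the CD4 T class, so these ranges did not meet. In granulocytes Cd79a ran from 18.9 to 50.0 SPM and Cd79b from 37.7 to 123.

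The transcription factors overlapped more between classes. Pax5 (chromosome 4, 44524757 to 44710487, minus strand) ran from 77.8 to 157 SPM in the B class and from 48.0 to 98.6 in the CD4 T class, with the B class higher in 5 of 6 mice. Ebf1 (chromosome 11, 44617317 to 45008091, plus strand) ran from 104 to 231 SPM against 108 to 158, also higher in 5 of 6. In granulocytes Pax5 had a median of 27.1 SPM and Ebf1 one of 46.0 over 9 mice.

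Cd22, an inhibitory co-receptor that binds sialic acid (chromosome 7, 30865402 to 30880342, minus strand), ran from 6.94 to 209 SPM in the B class, and the B class was above the CD4 T class in 6 of 6 mice and above granulocytes in 7 of 8. Bank1, a scaffold of receptor signalling (chromosome 3, 136053363 to 136326066, minus strand), had 212 SPM in the B class, 148 in the dendritic and 107 in the CD4 T class. Blk, a Src-family kinase (chromosome 14, 63372836 to 63417037, minus strand), had 38.9 SPM in the B class, with 6.94 to 46.9 over mice, and 28.7 in the CD4 T class, with 12.5 to 49.3. The 2 ranges of Blk overlapped almost entirely.

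Fcer2a was the exception to the order of classes. It encodes CD23, a low-affinity IgE receptor of mature follicular B cells (chromosome 8, 3681737 to 3694175, minus strand), and it stood at 41.7 SPM in the B class and 44.4 in the CD4 T class. The B class was higher in 2 of 6 mice. In the CD4 T class Fcer2a ran from 33.3 to 49.3 SPM over 6 mice, while in granulocytes it had a median of 2.83 SPM.

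**Figure D1:**
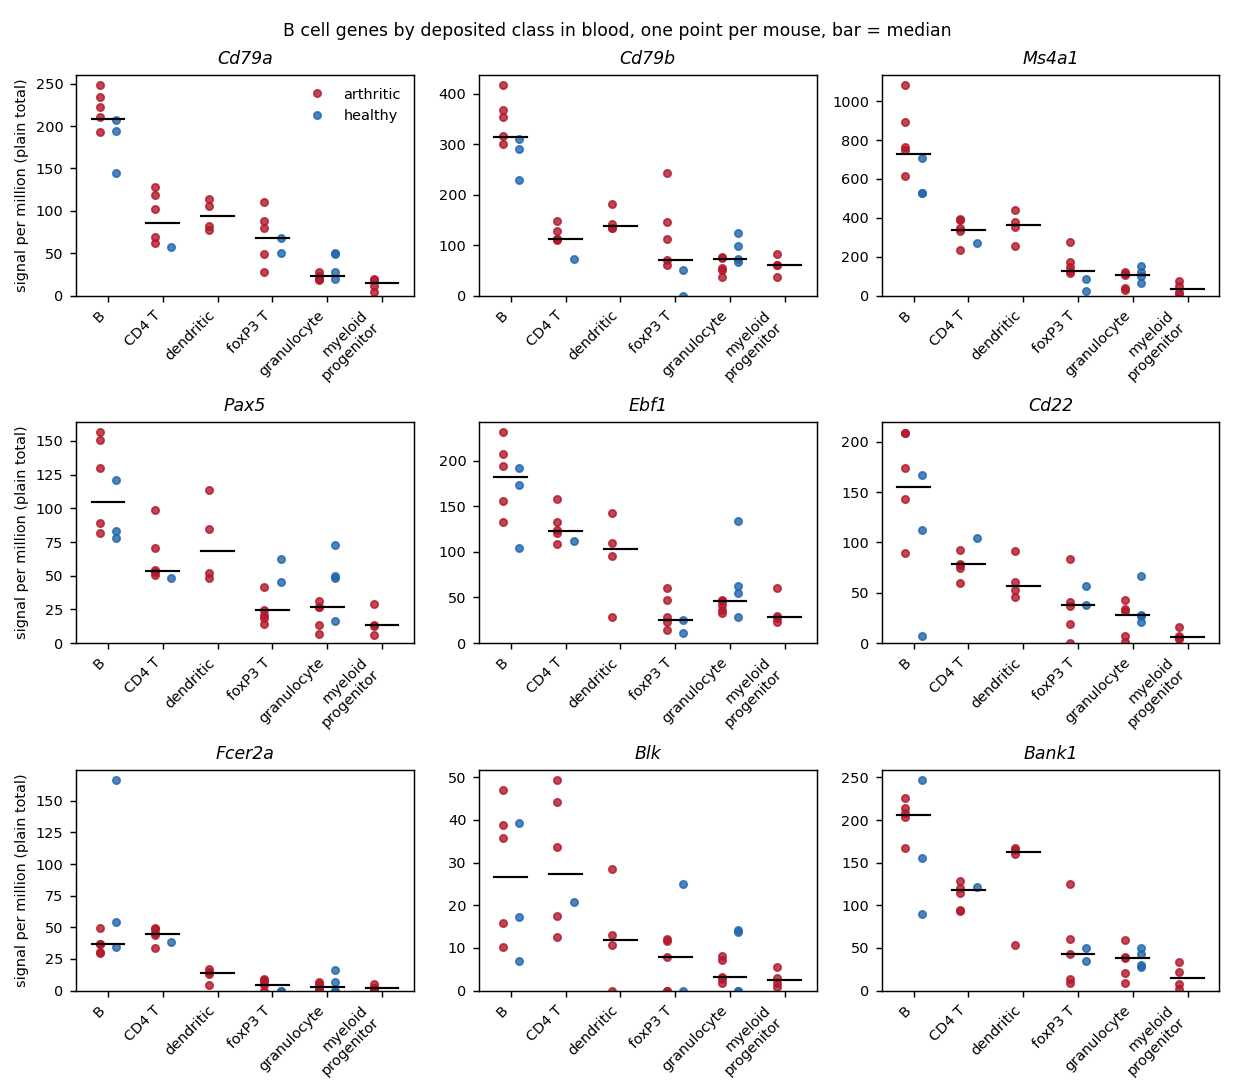
SPM of the 9 genes (vertical axis, linear, plain total) in 6 deposited classes of blood (horizontal axis), 1 point per mouse with at least 5 columns of the class, arthritic and healthy side by side, bar at the median. Ms4a1 is at 527 to 1083 SPM in the B class and at 27.7 to 150.0 in granulocytes, while Fcer2a is about level between the B and CD4 T classes.

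Signal of these genes in the CD4 T class came with signal of T cell genes in the B class. The 12 T cell markers summed to 1983 SPM in the B class and 4342 in the CD4 T class, and the 12 B cell markers to 6120 and 1356 SPM. None of the T cell markers was at 0 in the B class, and none of the B cell markers was at 0 in the CD4 T class. The part of mixed columns in these levels was not tested.

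Most B class columns showed most of the genes. Over the class, 97.5% of columns held at least 1 signal of Ms4a1, 88.4% of Cd79b, 83.2% of Cd79a, 79.9% of Bank1, 79.0% of Cd22, 77.7% of Ebf1, 67.0% of Pax5, 33.0% of Fcer2a and 32.3% of Blk. In granulocyte columns, of cells that should lack these genes, the shares were 44.2% for Ms4a1, 24.7% for Cd79a and 4.72% for Fcer2a. A column can hold signal of several similar cells, so these are shares of columns, not of cells.

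The B class held a set of columns very rich in antibody transcripts, and there the 9 genes parted. Jchain, which joins secreted immunoglobulin chains, was under 500 SPM in 958 columns and at 10000 SPM or more in 82, with 261 between them. The bound of 10000 was set after the distribution was seen, and what follows is a description. The 82 columns, 62 of them distinct within their mouse, held the plasma cell factors Xbp1 at 1544 SPM and Prdm1 at 78.0. The 958 columns held them at 109 and 13.5. Sdc1, the plasma cell surface marker CD138, stood at 59.4 against 1.17. Columns identical to a column of another mouse were kept in this split.

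In the columns with 10000 or more, Ms4a1 stood at 203 SPM, against 849 under 500, and Pax5 at 32.8 against 142. Ebf1 stood at 55.0 SPM against 217, Cd22 at 51.4 against 191 and Bank1 at 69.2 against 214. Each of these 5 was lower in the Jchain-rich columns in 5 of 5 mice with at least 3 columns in both ranges. Pax5 was listed at 0 in the Jchain-rich columns of arthritic mouse 5 and healthy mouse 2, which have 3 such columns each. Signal of Pax5 was present in 23.2% of the Jchain-rich columns, against 68.6% of those under 500.

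The receptor chains differed less. Cd79a stood at 228 SPM in the Jchain-rich columns, against 204 under 500, and Cd79b at 248 against 339.9, lower in 3 of 5 mice. Cd79a was higher in the Jchain-rich columns in 4 of 5 mice: 247 against 196 SPM in arthritic mouse 1, 299.5 against 213 in arthritic mouse 4, 229 against 216 in arthritic mouse 5 and 175 against 126 in healthy mouse 2, with 208 against 239 in arthritic mouse 3. All 82 columns held signal of Cd79a.

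These levels depend on the total they are divided by, since immunoglobulin genes with Jchain took 45.2% of the signal in the Jchain-rich columns and 0.545% under 500. With those genes left out of the total, Cd79a stood at 416 SPM against 205, and was higher in 5 of 5 mice. Cd79b then stood at 453 SPM against 342, and was lower in 1 of 5. Ms4a1 stood at 371 SPM against 854, Pax5 at 59.9 against 143, Ebf1 at 100.3 against 218 and Bank1 at 126 against 215. Each of these was still lower in 5 of 5 mice. The low-to-high ratio of Pax5 was 4.33 on the plain total and 2.39 without immunoglobulin genes. Cd22 and Fcer2a were then lower in 4 of 5 mice and Blk in 2 of 5. Ms4a1, Pax5, Ebf1 and Bank1 were thus lower in 5 of 5 mice with both totals, while the direction of Cd79b turned with the total.

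**Figure D2:**
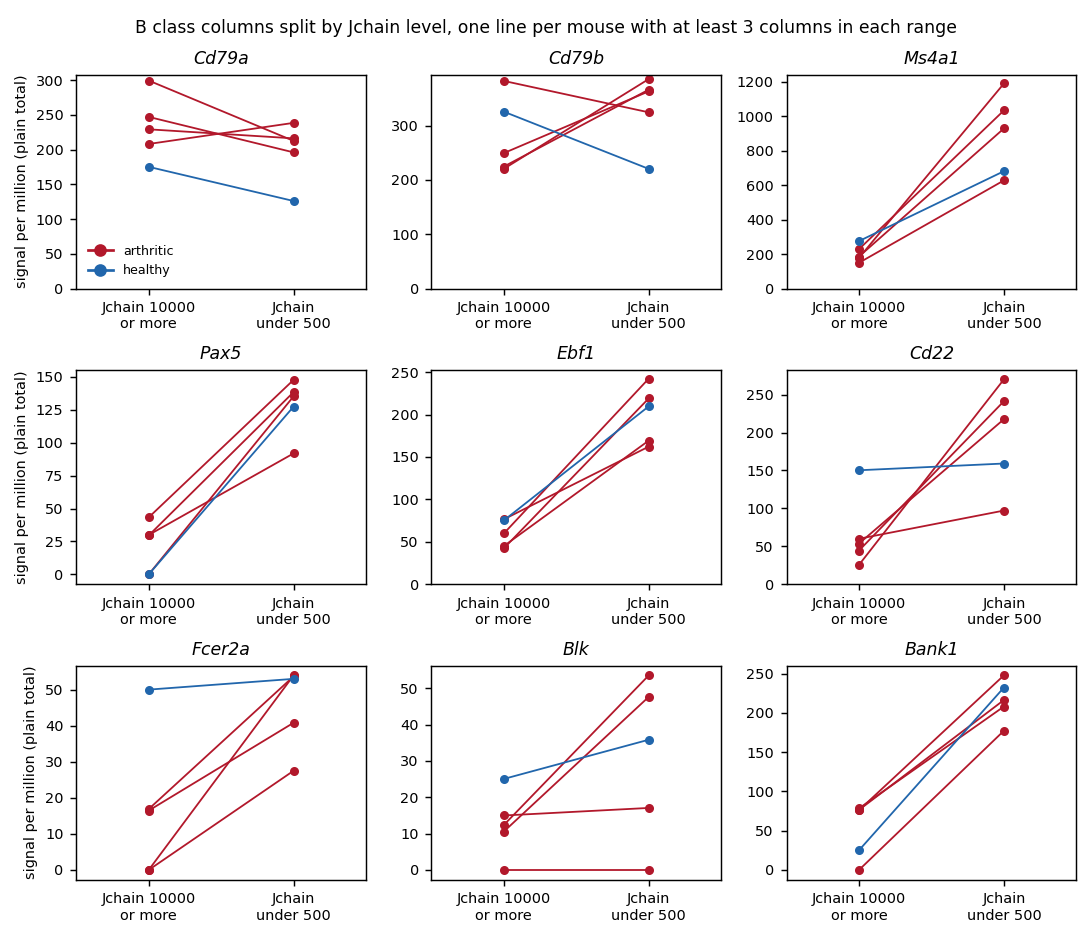
SPM of the 9 genes (vertical axis, linear, plain total) in B class columns with Jchain at 10000 SPM or more and under 500 SPM, 1 line per mouse with at least 3 columns in both ranges (4 arthritic mice and 1 healthy mouse). The lines of Ms4a1, Pax5, Ebf1 and Bank1 are all lower on the left, while Cd79a is higher on the left in 4 of 5 mice.

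The Jchain-rich columns were spread unevenly. Arthritic mice 1, 3, 4, 5 and 6 had 34, 35, 5, 3 and 2, and healthy mice 1 to 4 had 0, 3, 0 and 0. Healthy mice gave 136 of the 1301 B class columns, so the numbers are not compared.

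The first comparison between groups asked whether the B cell genes differed in arthritic blood as a whole. It called 0 of the 9 genes at an adjusted p under 0.05 (limma on log2 of TMM-scaled SPM plus 1, Benjamini-Hochberg over 8459 genes, n = 5 and 4 mice), where the share called among all genes was 0.0473% (0.0118% higher and 0.0355% lower in arthritic mice). At an unadjusted p under 0.05 it was 0 of 9, against 13.4% of all genes. Differences are arthritic minus healthy on the log2 scale, and 8 of the 9 lay below 0, with a median of -0.27. Over all genes tested the median was 0.26, and 69.3% were above 0. The groups overlapped for all 9 genes, where every arthritic mouse lay above every healthy mouse in 3.64% of all genes and below in 1.26%.

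The largest differences over all columns were those of Fcer2a and Pax5. Pax5 stood at 42.0, 60.5, 28.7, 17.3 and 69.6 SPM in arthritic mice 1, 3, 4, 5 and 6, against 49.3, 63.9, 63.2 and 87.0 in healthy mice 1 to 4. The arthritic mice 3 and 6 lay among the healthy ones, so the groups overlapped, and the log2 difference was -0.72 ± 0.38 (SE; limma adjusted p = 0.404). Over the alternatives it ran from -0.94 to -0.44, with adjusted p between 0.24 and 0.80.

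Fcer2a stood at 15.7, 17.6, 7.23, 2.99 and 18.5 SPM in the arthritic mice, against 11.7, 35.0, 8.43 and 53.5 in the healthy mice. Healthy mice 2 and 4 were above all arthritic mice, and healthy mice 1 and 3 were within their range. The log2 difference was -0.94 ± 0.63 (SE; limma adjusted p = 0.474). It turned to 1.40 when columns identical to a column of another mouse were left out (adjusted p = 0.556).

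No difference was called for the remaining genes over all columns. Cd79a averaged 70.3 ± 22.4 SPM in arthritic and 81.8 ± 5.03 in healthy mice (SD, n = 5 and 4), with a log2 difference of -0.27 and a 95% interval of -0.82 to 0.28. Cd79b averaged 125 ± 32.1 and 129 ± 13.4 SPM, and Ms4a1 246 ± 133 and 238 ± 98.8. The log2 differences of Ebf1, Blk, Bank1 and Cd22 were 0.01, -0.08, -0.32 and -0.49, all with groups that overlapped. The interval of Cd22 was wide, from -1.97 to 0.98. The 95% interval of Ms4a1 ran from -1.07 to 0.91, so differences within that range in either direction were not excluded by these mice. Fewer B cells and less RNA of a gene per cell cannot be told apart in these sums.

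**Figure D3:**
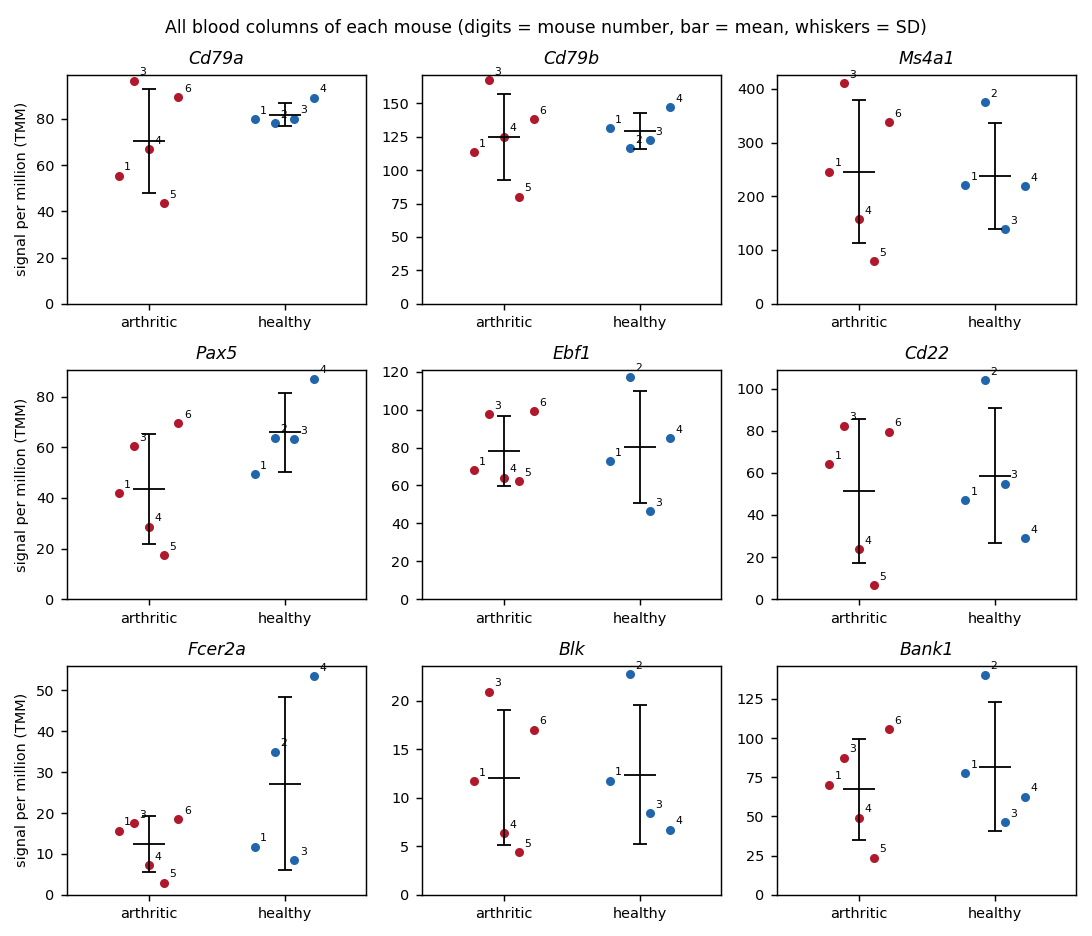
TMM-scaled SPM of the 9 genes over all blood columns (vertical axis, linear), 5 arthritic mice on the left and 4 healthy mice on the right, with mouse numbers, mean and SD. Every gene overlaps between groups, and healthy mouse 4 stands highest for Fcer2a at 53.5 SPM.

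The share of columns in the B class was 26.7%, 46.5%, 11.9%, 1.79% and 43.8% in arthritic mice 1, 3, 4, 5 and 6, against 30.0%, 55.2%, 3.85% and 33.3% in healthy mice 1 to 4. Both groups thus spread widely and overlapped. The means were 26.1% ± 19.5 and 30.6% ± 21.1 (SD over 5 and 4 mice; p = 0.730 in an exact permutation test, two-sided, which can reach 0.0159). The difference of -4.46 percentage points turned to 3.75 without healthy mouse 2 and 1.63 without arthritic mouse 5. With the foxP3 and granulocyte classes left out of the denominator the means were 53.3% ± 21.8 and 76.5% ± 20.9, a difference of -23.2 points (exact permutation p = 0.159).

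The second comparison asked the same within the B class, in 5 arthritic and 3 healthy mice with at least 5 such columns; healthy mouse 3, with 1, was left out. It called 0 of the 9 genes, and 0% of 9585 genes tested (limma, 677 or 7.06% at an unadjusted p under 0.05, of which 0 members). The groups overlapped for all 9 here too, against 3.38% of all genes wholly above and 1.28% wholly below in arthritic mice. Of the 9 genes, 8 lay above 0, with a median log2 difference of 0.17, against 0.56 for all genes, 71.4% of which lay above 0. The receptor chain Cd79a averaged 213 ± 25.1 SPM in arthritic and 205 ± 89.2 in healthy mice (SD, n = 5 and 3), and Cd79b 337 ± 50.3 and 312 ± 129. Ms4a1 averaged 779 ± 124 and 650.2 ± 206 SPM, Pax5 115 ± 28.8 and 104 ± 36.3, and Ebf1 175 ± 32.9 and 164 ± 23.3.

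Cd22 and Fcer2a had the widest differences within the B class, in opposite directions. Cd22 stood at 196, 187, 99.2, 130.3 and 162 SPM in arthritic mice 1, 3, 4, 5 and 6, against 91.2, 163 and 11.0 in healthy mice 1, 2 and 4. Healthy mouse 4 was far below all others, and healthy mouse 2 was within the arthritic range. The log2 difference was 1.42 ± 0.71 (SE; limma adjusted p = 0.519), and 0.36 without healthy mouse 4 (adjusted p = 0.908). It was 2.19 without healthy mouse 2 (adjusted p = 0.162) and 2.99 when healthy mouse 3, with its 1 column, was let in (adjusted p = 0.252). Over all its alternatives the adjusted p of Cd22 lay between 0.162 and 0.970.

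Fcer2a stood at 46.8, 32.9, 32.6, 27.9 and 34.8 SPM in the arthritic mice, against 28.1, 53.1 and 263 in healthy mice 1, 2 and 4. Here healthy mouse 4 was far above all others, and healthy mouse 1 was level with the lowest arthritic mouse. The log2 difference was -1.07 ± 0.65 (SE; limma adjusted p = 0.519), and -0.10 without healthy mouse 4 (adjusted p = 0.974).

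Most columns behind both values of healthy mouse 4 were repeated ones. Its B class held 15 columns but 5 distinct ones, and 12 of the 15 were identical to columns of another mouse, 10 of them copies of 1 profile. Those 12 columns carried 24 signal of Fcer2a and 0 of Cd22, and the 3 columns of its own carried 0 of Fcer2a and 1 of Cd22. Hemoglobin took 40.7% of the B class signal of this mouse. With columns identical to another mouse's left out, which leaves 2 healthy mice, the log2 difference was 0.07 for Fcer2a (adjusted p = 0.949) and 0.20 for Cd22 (adjusted p = 0.850).

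**Figure D4:**
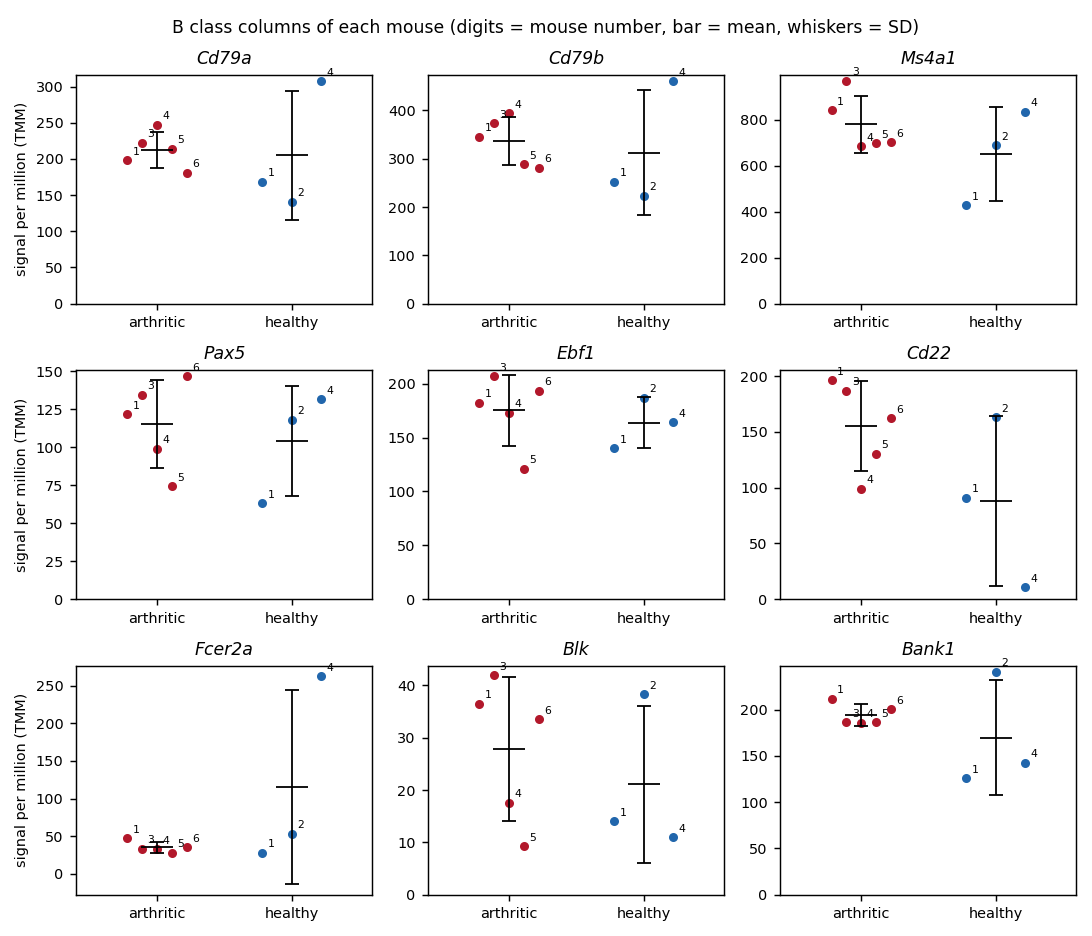
TMM-scaled SPM of the 9 genes over the B class columns (vertical axis, linear), 5 arthritic mice on the left and 3 healthy mice on the right, with mouse numbers, mean and SD (a whisker may pass below 0). Healthy mouse 4 stands apart for Fcer2a at 263 SPM and for Cd22 at 11.0 SPM.

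Markers of other cell types were also present in the B class. In the B class the 10 neutrophil markers summed to 3449 to 5925 SPM in arthritic mice. They summed to 2337 to 2878 SPM in healthy mice 1, 2 and 4, and to 219.9 in healthy mouse 3, with 1 column. Over all columns the sums were 21470 to 158800 SPM in arthritic and 5542 to 10670 in healthy mice. These ranges did not overlap, and the part of neutrophil signal in the values of the 9 genes was not tested. The 9 plasma cell markers summed to 1332 to 53750 SPM in the B class of arthritic and 631 to 3643 of healthy mice, and the 12 T cell markers to 1244 to 2177 and 888 to 2623 SPM, both with overlap. Leaving out the columns with 10000 SPM of Jchain or more again called 0 of the 9 genes, with log2 differences of 1.51 for Cd22 and -0.96 for Fcer2a. Leaving out all columns with 500 or more, which leaves 4 arthritic and 2 healthy mice and not healthy mouse 4, also called 0, with 0.50 for Cd22 and -0.0092 for Fcer2a.

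In granulocyte columns, set beside the B class as the level outside B cells, 7 of the 9 genes passed the filter of 10 SPM; Fcer2a and Blk did not. It called 0 of the 7 in 5 arthritic and 4 healthy mice, where limma called 52 of 7935 genes, or 0.655% (0.58% higher and 0.0756% lower in arthritic mice). An unadjusted p under 0.05 was reached by 21.6% of all genes and by 0 of the 7. The groups overlapped for all 7, against 8.65% of all genes wholly above and 1.4% wholly below in arthritic mice. Of the 7, 0 lay above 0, with a median log2 difference of -0.53. Over all genes tested there the median was 0.53, and 77.3% lay above 0. Pax5 averaged 19.7 ± 6.55 SPM in arthritic and 50.0 ± 32.2 in healthy mice (SD), which is -1.06 ± 0.54 on the log2 scale (SE; limma adjusted p = 0.271). Its unscaled signal in healthy mice 1 to 4 was 7, 1, 7 and 22. Without healthy mouse 2 the log2 difference of Pax5 was -1.41, with a limma adjusted p of 0.043. That fit called 883 genes in all, against 52 with every mouse, so a call there is not particular to Pax5. No other gene of the list was called when a mouse was left out.

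Other genes of the pathway gave 0 calls in the same fits over all columns and in the B class. Of 25 tested genes of B cell receptor signalling, 9 lay above 0 over all columns (median log2 difference -0.25), and 14 of 26 in the B class (median 0.05). Pik3cd, the catalytic subunit of a lipid kinase downstream of the receptor, averaged 34.6 ± 9.40 SPM in arthritic and 68.6 ± 19.2 in healthy mice over all columns, which is -0.96 ± 0.28 on the log2 scale (SE; limma adjusted p = 0.228). Blnk, the adaptor that links CD79A to phospholipase C, averaged 45.6 ± 17.3 and 76.0 ± 23.8 SPM (adjusted p = 0.343). Plcg2 and Cd81 went the other way. Plcg2 averaged 30.7 ± 3.67 SPM in arthritic and 18.2 ± 8.8 in healthy mice (limma adjusted p = 0.323). Cd81 averaged 43.2 ± 14.3 and 27.4 ± 7.38 SPM (limma adjusted p = 0.394). Of 14 B lineage transcription factors, 7 lay above 0 over all columns and 9 in the B class, and Ikzf3, the zinc finger factor Aiolos, averaged 54.3 ± 23.7 SPM in arthritic and 102 ± 23.4 in healthy mice over all columns (adjusted p = 0.328).

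Surface and survival receptors of mature B cells had 9 of 20 genes above 0 over all columns and 15 of 20 in the B class, with a median of 0.76 there; 69.3% and 71.4% of all genes lay above 0 in these fits. Tnfrsf13c, the receptor for the survival factor BAFF, averaged 127 ± 24.5 SPM in the B class of arthritic and 68.2 ± 40.1 of healthy mice, which is 1.12 ± 0.49 on the log2 scale (SE; limma adjusted p = 0.519). Plasma cell genes had 5 of 8 above 0 over all columns and 9 of 9 in the B class, with a median of 1.87; Mzb1, a chaperone of antibody assembly, averaged 748 ± 506 and 210 ± 155 SPM (adjusted p = 0.519). Of the early B precursor genes 2 of 6 lay above 0 over all columns and 1 of 4 in the B class, and Igll1, part of the surrogate light chain, averaged 4.10 ± 4.07 and 30.9 ± 20.9 SPM (adjusted p = 0.519).

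The genes whose levels went most closely with the 9 over 38 pairs of mouse and class, in 6 classes, were Iglc2 (Pearson r = 0.907), Mef2c (0.905), Ralgps2 (0.899), Ly6d (0.891), mt-Nd1 (0.89), Iglc3 (0.889), Cd37 (0.882) and Cd83 (0.869). The value correlated was the mean log2 level of the 9 genes, out of 13623 genes examined. The pairs share mice, classes and identical columns, so r is given as a description. Mef2c, a transcription factor, had 409 SPM in the B class, 213 in the CD4 T class and 65.6 in granulocytes. The mitochondrial gene mt-Nd1 had 1611, 1745 and 489 SPM, which is not an order particular to B cells.

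In the joint, the B class was small, with 63 of the 8250 columns used, and 29 of the 63 were identical to a blood column. It had Ms4a1 at 653 SPM, Cd79a at 249.5, Cd79b at 246, Cd22 at 126, Bank1 at 124, Ebf1 at 112, Pax5 at 84.0, Blk at 21.6 and Fcer2a at 19.1. Without the identical columns, which leaves 34, Ms4a1 stood at 807 SPM, Cd79a at 264, Cd22 at 133, Ebf1 at 118 and Pax5 at 105. In blood the B class had 886, 216, 185, 207 and 140.0 SPM of the same genes, so over the whole class Cd79a was the higher in the joint and the others the lower. In columns with Jchain under 500 SPM, taken up next, the joint had Ms4a1 at 922 and Pax5 at 148 SPM, against 849 and 142 in blood, so the direction of these 2 turned. The tables were made separately and the joint values are pooled, so these are values side by side with no test.

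Antibody-rich columns made up more of the joint B class, and the genes parted there as in blood. Jchain reached 10000 SPM or more in 28 of the 63 columns. In those 28, Pax5 stood at 10.4 SPM and Ms4a1 at 248, against 148 and 922 in the 25 columns under 500. Cd79a stood at 222 SPM against 257. Without columns identical to blood, 9 and 18 columns remained, with Pax5 at 9.17 against 143 SPM and Cd79a at 266 against 258. The pattern seen in blood on the plain total, with Cd79a near level and Pax5 and Ms4a1 lower, was thus present in the joint columns that blood does not share, though on few columns. Joint levels without immunoglobulin genes in the total are not given.

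Away from the B class, Ebf1 was highest in the osteoblast class among the joint classes used. It stood there at 258 SPM, against 112 in the joint B class, and all 35 columns used, 15 of them distinct, held signal of it. Pax5, Cd22, Fcer2a, Blk and Bank1 were at 0 in these columns, Cd79a was at 7.28 SPM and Ms4a1 at 29.1. The class bore the bone genes Col1a1 at 22920 SPM and Bglap, which encodes osteocalcin, at 11560, against 0 of both in the joint B class. EBF1 is also known from stromal and bone-forming cells of the mouse. Without the 2 columns identical to blood Ebf1 stood at 237 SPM. The 35 columns are a part of the 58 deposited in this class. Those used come from 1 joint mouse, so nothing can be said of the spread.

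The joint macrophage class held some of the 9 genes and not others. Cd22 stood at 35.6 SPM, against 126 SPM in the joint B class. It had signal in 42.3% of the 52 columns used, out of 67 deposited. Of the 52, 34 were distinct and all came from 1 mouse. Cd79b stood at 24.8 SPM, with signal in 30.8% of the columns, and Bank1 at 17.0 SPM, in 21.2%. Cd79a, Ms4a1, Fcer2a and Blk were at 0 there, Ebf1 was at 9.29 SPM and Pax5 at 4.65. In joint granulocytes, with 6487 columns, Cd22 was at 5.78 SPM.

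The joint myeloid progenitor class, with 1498 columns, had more Ebf1 than granulocytes, at 70.6 against 30.4 SPM, and less Ms4a1, at 14.9 against 24.3. Cd79b was at 50.7 SPM and Pax5 at 26.4, while Cd22 was at 5.46 and Bank1 at 2.99. Genes of early B precursors were present in it, with Igll1 at 97.6 SPM, Vpreb3 at 57.3 and Vpreb1 at 43.9, against 25.2, 26.7 and 12.9 in granulocytes. Vpreb1 was higher still in the joint foxP3 class, at 74.6 SPM over the 87 columns used of 179. The part of B precursors in this class was not tested.

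**Figure D5:**
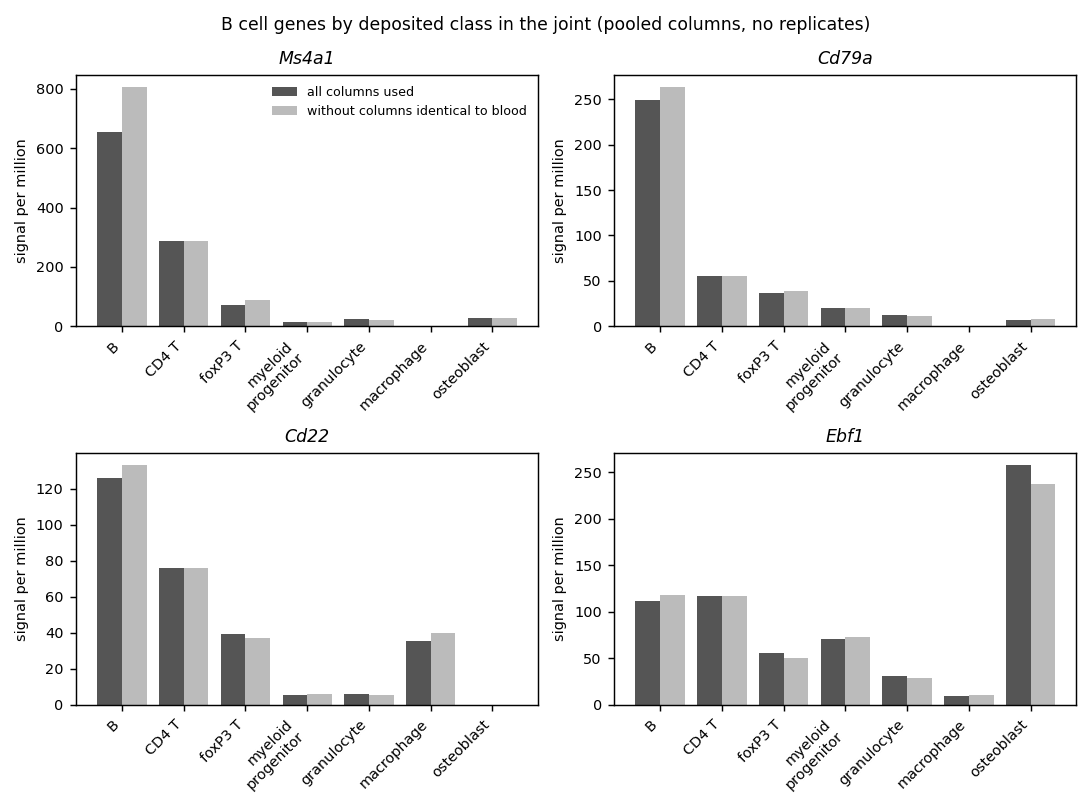
SPM (vertical axis, bars from 0) of Ms4a1, Cd79a, Cd22 and Ebf1 in 7 deposited classes of the joint, over all columns used and without columns identical to a blood column; there are no replicates. Ms4a1 and Cd79a are highest in the B class, Cd22 also shows in the macrophage class, and Ebf1 is highest in the osteoblast class.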

How the data were processed

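Seq-Well libraries of blood from 5 arthritic and 4 healthy mice were processed by the authors with the Drop-seq core protocol on GRCm38.p5, per the labels' protocols. No label names the aligner, the cell filter or how classes were called. The deposited signal values are whole-number sums per gene and column; because many columns are identical, they were not treated as counts, and no count test was run.

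Sums per mouse were TMM-scaled (30% of M and 5% of A trimmed) to a total of 1000000, and 1 was added as pseudocount before log2. Values by class use the plain total. A gene entered limma 3.58.1 (trend, R 4.3.3) if the number of mice with at least 10 SPM reached the size of the smaller group, with a Benjamini-Hochberg threshold of 0.05. A class needed 5 columns per mouse. The fit was tried on simulated data drawn independently for each mouse, so identical columns between mice were not covered. The B class share was tested with an exact permutation test over 126 splits. Log2 values on SPM plus 1 understate changes of low genes. Nothing says whether mice were handled together, and p-values measure only the spread between these mice, some of whose columns are identical between mice; no counting intervals are given.

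All 9 genes are named; of further lists, up to 4 genes with the smallest unadjusted p per fit were eligible, and the text gives some of these. The genes, lists and markers were chosen with earlier results of these data known. Of the joint columns, 173 were not used. They were all columns of the adipose, mast and myeloid dendritic classes and a part of the foxP3, macrophage and osteoblast classes. Coordinates are from GENCODE M21 (GRCm38), promoters from RefSeq. Sums and the permutation test used Python 3.11.15 with scipy 1.17.1, pandas 2.3.3 and numpy 2.4.6.

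Alternatives changed the scaling, filter, pseudocount, weights, columns, genes, covariates and mice. Mouse numbers shared between groups were tried as a block, though same-numbered mice did not deviate together (correlations of -0.287 to 0.301 over all columns).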

Additional observations from a re-analysis of the deposited data

How the results depend on the processing

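Of the 9 genes, 0 were called over all columns and in the B class under every alternative run, mice left out included. In granulocytes 1 was called (Pax5, without healthy mouse 2, log2 difference -1.41), in a fit that called 883 genes in all. Calls among all genes moved more. Over all columns they were 4, and 19 with total signal alone, 0 without a filter, 7 with a pseudocount of 5, 0 with weights for each mouse, 10 without hemoglobin genes, 73 with hemoglobin share as a covariate, 35 with the replicate block and 0 to 64 with a mouse left out (64 without arthritic mouse 6, 1 without arthritic mouse 4 or healthy mouse 3, 3 without arthritic mouse 5 and 0 without each of the others). In the B class they were 0, and 26 with the replicate block and 0 to 59 with a mouse left out (59 without healthy mouse 2). In granulocytes they were 52, and 5 with median-of-ratios factors, 2 with total signal alone, 82 with the replicate block and 0 to 883 with a mouse left out (0 to 3 without arthritic mouse 1, 3, 4 or 5, 172 without arthritic mouse 6, and 338, 883, 243 and 380 without healthy mouse 1, 2, 3 and 4). The granulocyte alternatives and the Jchain bound of 10000 were chosen after seeing the data.

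Signs of single genes, none of them called, turned as follows over all columns. With columns identical to another mouse's left out, Cd79a became 0.23, Cd79b 0.10, Ms4a1 0.39, Fcer2a 1.40 and Blk 0.41. With the replicate block Cd79b became 0.00053, Ms4a1 0.41, Cd22 0.25, Blk 0.38 and Bank1 0.14. With weights Cd79b became 0.0078, Ms4a1 0.13, Ebf1 -0.062, Cd22 0.024 and Blk 0.081. With identical columns within a mouse counted once Cd79b became 0.0498 and Ms4a1 0.20. Ebf1 became -0.10 with median-of-ratios factors, -0.018 without hemoglobin genes and -0.15 with hemoglobin share as a covariate. With a mouse left out, Cd79b ran from -0.22 to 0.061, Ms4a1 from -0.33 to 0.27, Ebf1 from -0.23 to 0.18, Cd22 from -0.78 to 0.092, Blk from -0.33 to 0.21 and Bank1 from -0.55 to 0.0033. In the B class Cd22 kept its sign and ran from 0.20 to 2.99 over all alternatives, with 2.08 under the replicate block. There Cd79a became -0.0092 and Ebf1 -0.049 with median-of-ratios factors, Cd79a became -0.039 with the replicate block, Blk -0.031 with hemoglobin share as a covariate and Fcer2a 0.074 with columns identical to another mouse's left out. There, with a mouse left out, Cd79a ran from -0.10 to 0.52 and Cd79b from -0.032 to 0.55, and in granulocytes Bank1 from -0.32 to 0.076. Without the foxP3 and granulocyte classes, which leaves healthy mouse 3 with 1 column, the B class share difference became -23.2 percentage points. It became 1.07 percentage points with identical columns counted once, and ran from -13.4 to 3.75 with a mouse left out. The cause was not tested. All genes tested had a median log2 difference of 0.26, 0.15 and 0.31 over all columns with TMM, median-of-ratios and total scaling, and 0.56, 0.44 and 0.70 in the B class.

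A minimum of 20 columns per mouse could not be fitted in the B class, since 1 healthy mouse reaches it. Depth limits single mice in both groups: arthritic mouse 5 had 98052 B class signal, with Fcer2a on 3 and Blk on 1, and the healthy mice had 9097 to 992249, with Fcer2a on 2 to 54 and Cd22 on 0 to 166.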
